A study of Mus musculus with 6 samples.

Results

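The mevalonate pathway up to squalene was examined in RNA-seq of mouse pancreatic buds through 8 genes chosen by name, Acat2, Hmgcs1, Mvk, Pmvk, Mvd, Idi1, Fdps and Fdft1, out of 54532 genes in the table. The rule is the enzymes' place in the pathway and holds no measured value, but it was set with earlier results of these data known. Buds were dissected from embryos at E12.5 and kept as explants for 2 days in M199 medium with 10% fetal bovine serum and 0.1% DMSO. Control buds had the DMSO vehicle, and the TBZ group had 0.1 µM tetrabenazine, an inhibitor of the vesicular monoamine transporter VMAT2, from start to end of culture. Each group had 3 libraries, and the study asked how monoamine loading through VMAT2 bears on pancreatic development. Mouse strain, litters and pooling of buds are not given in the labels, so the p-values reflect only how far these samples scatter, and that scatter may be technical. Values of single libraries are given in the order of replicates 1 to 3.

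The mevalonate pathway builds isoprenoids and sterols from acetyl-CoA. Acetyl-CoA units are joined to HMG-CoA, from which mevalonate is made. Kinases and a decarboxylase then turn mevalonate into isopentenyl diphosphate, and prenyl units are coupled to farnesyl diphosphate and finally to squalene, the first committed intermediate of cholesterol. Farnesyl diphosphate also feeds side branches that make dolichol, ubiquinone and the lipid anchors of small GTPases. Transcription of the pathway is known to be driven by SREBP2, which acts with NF-Y and Sp1 and responds to the sterol content of the endoplasmic reticulum.

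All 8 genes had a lower mean in TBZ than in control buds, by small amounts. The log2 fold changes lay between -0.39 for Fdps and -0.11 for Pmvk with a median of -0.23, while the median over all 18226 tested genes was 0.00031. None of the 8 passed the edgeR quasi-likelihood test at a Benjamini-Hochberg adjusted p under 0.05, which 0.0329% of tested genes passed as lower in TBZ and 0.187% in either direction. At an unadjusted p under 0.05, 7 of the 8 were lower, against 4.54% of all tested genes. In 6 of the 8 every TBZ library was below every control library, against 7.03% of all tested genes, and 8 of 8 had a negative log2 fold change, against 49.9%. DESeq2 called Hmgcs1 and Mvd lower (adjusted p = 0.00450 and 0.00509), and it called 0.335% of its tested genes lower. The authors' deposited table lists the same 2 genes as changed (adjusted p = 0.00449 and 0.00506) among the 0.18% of its genes that are lower there. Its log2 fold changes of the members match those of the DESeq2 fit (-0.327 for Mvd in both), so it is no separate support. Each lists 52 genes as lower, out of 28930 genes in the deposited table and 15527 in the DESeq2 fit. With no expression filter, edgeR called 5 members lower, and it called 0.582% of the 31250 genes then tested lower.

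Of the 8 genes, 6 have a window of 250 bases before and 50 bases after the transcript start in the RefSeq table used (GRCm38.p6, the mm10 assembly). Fdps and Fdft1 have none there. The windows were searched on both strands for TCACNCCAC, a form of the sterol regulatory element, and for CCAAT (the NF-Y box), GGGCGG (the Sp1 box) and CACGTG (an E-box). The upstream parts of the windows of 4 genes are shown because these genes had non-overlapping groups and hold the most NF-Y boxes. Capitals mark the sterol regulatory element form in Hmgcs1 and the NF-Y boxes, which read ATTGG where they lie on the other strand.
Hmgcs1 (chr13:119690101-119690350, plus strand): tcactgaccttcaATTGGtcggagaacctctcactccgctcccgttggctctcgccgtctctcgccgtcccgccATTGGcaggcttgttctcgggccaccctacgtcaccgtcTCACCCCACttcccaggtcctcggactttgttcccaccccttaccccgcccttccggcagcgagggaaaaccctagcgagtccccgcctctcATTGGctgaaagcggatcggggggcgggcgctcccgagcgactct
Mvk (chr5:114444019-114444268, plus strand): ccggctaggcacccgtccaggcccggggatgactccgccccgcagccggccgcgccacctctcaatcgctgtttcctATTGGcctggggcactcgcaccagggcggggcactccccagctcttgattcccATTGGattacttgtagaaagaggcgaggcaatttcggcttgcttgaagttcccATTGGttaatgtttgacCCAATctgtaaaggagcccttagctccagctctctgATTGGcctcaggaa
Mvd (chr8:122443423-122443572, minus strand): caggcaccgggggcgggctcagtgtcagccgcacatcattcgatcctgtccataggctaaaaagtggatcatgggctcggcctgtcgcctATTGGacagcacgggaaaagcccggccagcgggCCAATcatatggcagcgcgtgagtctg
Idi1 (chr13:8885456-8885605, plus strand): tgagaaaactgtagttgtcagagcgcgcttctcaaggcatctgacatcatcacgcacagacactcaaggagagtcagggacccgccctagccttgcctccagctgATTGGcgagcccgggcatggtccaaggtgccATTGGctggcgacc

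The NF-Y box was present in 5 of the 6 members with a window, against 41.1% of the 27025 genes in the RefSeq table. These genes were not chosen by expression or base content, so the shares are no matched background. At least 2 boxes stood in 4 members (Hmgcs1, Mvk, Mvd and Idi1), against 13.3% of all genes. At least 4 boxes stood in Hmgcs1 and Mvk, against 1.22%. The fourth of Hmgcs1 lies just after the RefSeq start, outside the stretch shown. The RefSeq starts do not always match the gene spans given below. The span of Hmgcs1 begins at 119690379, downstream of this box. That of Idi1 begins at 8885501, upstream of the boxes marked for it, which thus lie within its span. The Sp1 box was present in 5 of the 6, against 38.2%, and Pmvk lacked it. The sterol regulatory element form was present in Hmgcs1 alone, with its first base 137 bases upstream of the start, against 1.44% of all genes, and no member held the E-box, against 8.09%. No match means only that these letters are not in this window. Of 10 genes of the steps after squalene that have a window, all 10 held the NF-Y box and the Sp1 box, none the sterol regulatory element form and 3 the E-box. Mvk lies head to head with Mmab, whose product adenosylates cobalamin, and the annotated starts lie 209 bases apart, so that the upstream sequence printed for Mvk also covers the start of Mmab. The log2 fold change of Mmab was -0.08 ± 0.05 (SE; edgeR adjusted p = 0.644), beside -0.19 ± 0.06 for Mvk, and the difference between them was not tested.

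**Figure D1:**
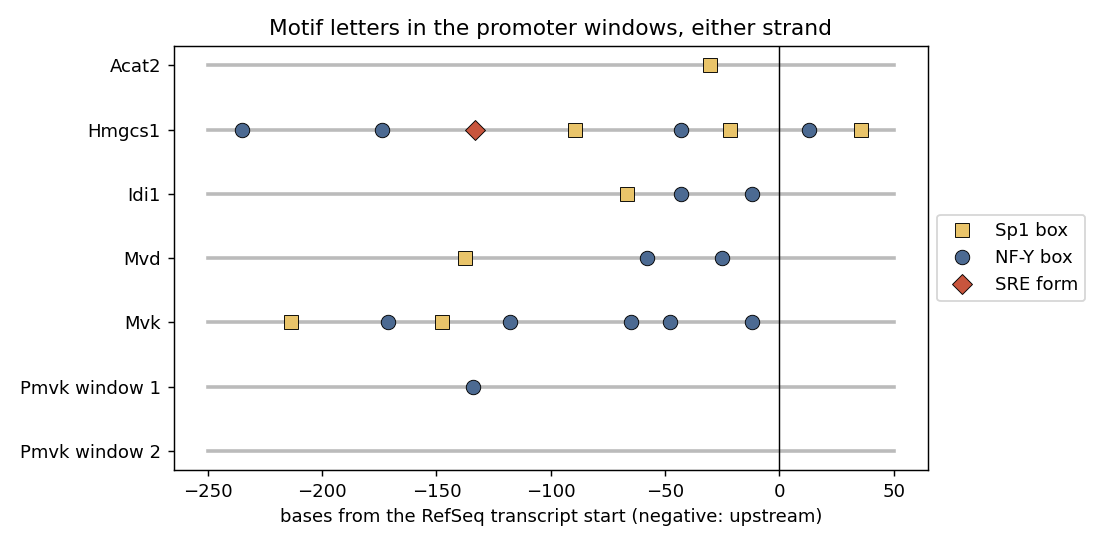
Position of motif letters in the RefSeq promoter windows of 6 mevalonate pathway genes, in bases from the transcript start, with Pmvk shown by both of its windows. Circles are NF-Y boxes, squares Sp1 boxes and the diamond the sterol regulatory element form, which is found in Hmgcs1 alone. Mvk holds 5 NF-Y boxes and Acat2 none.

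Levels were compared between genes per length, in FPKM as deposited. The deposited length counts all exonic bases of a gene, 4208 for Fdps and 2675 for Mvk. Their longest coding transcripts hold 1382 and 1660 bases, so the gaps between genes depend on the length used. Hmgcs1 was the highest in control buds at 112 ± 5.30 FPKM (SD, n = 3). It was followed by Acat2 at 64.6 ± 5.37, Mvd at 56.2 ± 5.76, Fdft1 at 46.9 ± 4.18 and Idi1 at 38.8 ± 1.01 FPKM. Pmvk at 24.7 ± 2.24 and Mvk at 21.5 ± 1.77 FPKM came next, and Fdps stood far below at 2.10 ± 0.373 FPKM. The level of Fdps is uncertain, since 86.4% of the 50-base stretches of its longest coding transcript also occur in transcripts of other genes. In controls the ranges of Acat2 and Mvd overlapped, as did those of Pmvk and Mvk, so these neighbours did not differ beyond their spread, whereas the other neighbours did not overlap. The order was the same in TBZ buds, with means from 95.0 FPKM for Hmgcs1 to 1.60 FPKM for Fdps. There the ranges of no neighbours overlapped, those of Acat2 and Mvd and of Pmvk and Mvk included. All 8 genes passed the expression filter.

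**Figure D2:**
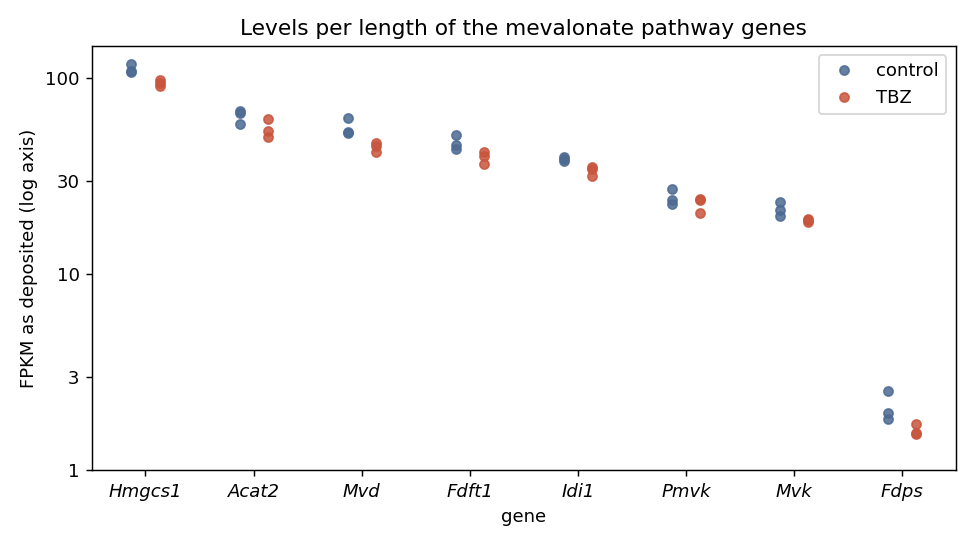
FPKM as deposited (log axis) of the 8 genes, in order of their control mean, with 1 point per library (3 control, 3 TBZ). Hmgcs1 lies near 112 FPKM in controls, and Fdps, at 2.10 FPKM, lies 10.3-fold below Mvk, its neighbour in the order. The size of this gap depends on the deposited length, which counts all exonic bases of a gene. The level of Fdps is also uncertain because most of its sequence is shared with other genes.

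The first reactions join acetyl-CoA units in the cytosol. Acat2, the thiolase that makes acetoacetyl-CoA, lies on chromosome 17 from 12942890 to 12960747 (mm10, minus strand). It stood at 175, 149 and 171 CPM (counts relative to the TMM-scaled library size) in the control libraries, and at 128, 159 and 138 CPM with TBZ. The groups overlapped, since TBZ replicate 2 was above control replicate 2. The log2 fold change was -0.22 ± 0.08 (SE), with an edgeR adjusted p of 0.455. Hmgcs1, the cytosolic synthase that adds a further acetyl-CoA to give HMG-CoA, lies on chromosome 13 from 119690379 to 119708260 (plus strand), and its promoter is the one above that carries the sterol regulatory element form. It stood at 497, 504 and 543 CPM in the control libraries and at 420.1, 454 and 439 CPM with TBZ. Every TBZ library was below every control library, and the log2 fold change of -0.23 ± 0.05 (SE; edgeR adjusted p = 0.128) corresponds to -14.9%. Among the 8 genes it had the smallest unadjusted edgeR p (0.000902).

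Mevalonate is then phosphorylated in successive steps and decarboxylated. Mvk, mevalonate kinase, lies on chromosome 5 from 114444269 to 114460591 (plus strand). It stood at 57.2, 53.3 and 62.8 CPM in the control libraries and at 49.3, 50.8 and 51.5 CPM with TBZ. The groups did not overlap, but TBZ replicate 3 at 51.5 CPM lay close below control replicate 2 at 53.3 CPM. The log2 fold change was -0.19 ± 0.06 (SE, edgeR adjusted p = 0.342). Without control replicate 3 it was -0.13. Pmvk, the phosphomevalonate kinase that acts next, lies on chromosome 3 from 89454541 to 89469013 (plus strand). It stood at 41.0, 39.3 and 46.7 CPM in the control libraries and at 35.2, 40.9 and 41.7 CPM with TBZ. The groups overlapped, with TBZ replicates 2 and 3 above control replicate 2, and the log2 fold change was -0.11 ± 0.08 (SE; edgeR adjusted p = 0.719). Its 95% interval ran from -0.29 to 0.08, so that neither no change nor a change of the size seen in Hmgcs1 lies outside it. The log2 fold change of Pmvk was -0.03 without control replicate 3 and -0.04 without TBZ replicate 1.

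Mvd, the decarboxylase that yields isopentenyl diphosphate, lies on chromosome 8 from 122433601 to 122443422 (minus strand). It stood at 98.1, 98.9 and 117 CPM in the control libraries and at 78.8, 84.0 and 87.7 CPM with TBZ. All TBZ libraries were below all controls, and the log2 fold change of -0.33 ± 0.07 (SE; edgeR adjusted p = 0.164) corresponds to -20.2%. Of the members with more than 10 CPM, Mvd had the most negative log2 fold change, with a 95% interval from -0.49 to -0.16.

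Prenyl units are made and coupled by the last enzymes. Idi1, the isomerase that converts isopentenyl to dimethylallyl diphosphate, lies on chromosome 13 from 8885501 to 8892451 (plus strand). It stood at 136, 133 and 140.3 CPM in the control libraries and at 112, 122 and 125 CPM with TBZ. The groups did not overlap, the control libraries were close to each other, and the log2 fold change was -0.19 ± 0.05 (SE; edgeR adjusted p = 0.237). Fdft1, squalene synthase, joins farnesyl units to squalene and lies on chromosome 14 from 63145150 to 63179578 (minus strand). It stood at 194, 184 and 218 CPM in the control libraries and at 156, 178 and 169.8 CPM with TBZ. TBZ replicate 2 came close to control replicate 2 without passing it, and the log2 fold change was -0.25 ± 0.07 (SE; edgeR adjusted p = 0.287).

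Fdps, farnesyl diphosphate synthase, couples the prenyl units and lies on chromosome 3 from 89093588 to 89101959 (minus strand). Its values rest on few reads, 359, 420 and 445 in the control libraries and 265, 262 and 260 with TBZ. These correspond to 7.66, 8.28 and 10.7 CPM and to 6.57, 6.43 and 7.29 CPM. The groups did not overlap, and the log2 fold change of -0.39 ± 0.13 (SE; edgeR adjusted p = 0.393) had the widest 95% interval of the 8, from -0.69 to -0.09. Without control replicate 3 its log2 fold change was -0.24. In GENCODE M21 the gene model Gm43738 runs through Fdps on the same strand and shares 1124 of its 4208 exonic bases. Of all 50-base stretches in the longest coding transcript of Fdps, 86.4% also occur in transcripts of other genes, 77.3% in Gm43738 and 40.1% in the processed pseudogene Gm3571. No read was counted to Gm43738 in any library, while Gm3571 had 757, 786 and 826 reads in the controls and 569, 625 and 552 in TBZ, more than Fdps itself. The level of Fdps is therefore uncertain, and the part of shared sequence in it was not tested.

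Shared sequence touched other members less. The share of 50-base stretches found in transcripts of other genes was 45.9% for Acat2, 30.7% for Fdft1, 30.5% for Idi1, 13.6% for Hmgcs1 and 0 for Mvk, Pmvk and Mvd. For Acat2 the stretches lie in Acat3, a close copy, and 13.2% of its stretches also lie in Tcp1, a chaperonin subunit gene with 13796 to 20233 reads a library (log2 fold change -0.04). For Idi1 they lie mainly in the processed pseudogene Gm13502 (21.3%). Fdft1 shares 774 exonic bases at its end with Ctsb, a cathepsin gene on the opposite strand, and Ctsb had a log2 fold change of -0.10 ± 0.09 (SE; edgeR adjusted p = 0.746). The library kit named in the labels and the counting notes do not state whether strand was used. Of the 3 members that share no such stretch, Mvk and Mvd had non-overlapping groups, and Pmvk had groups that overlapped.

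**Figure D3:**
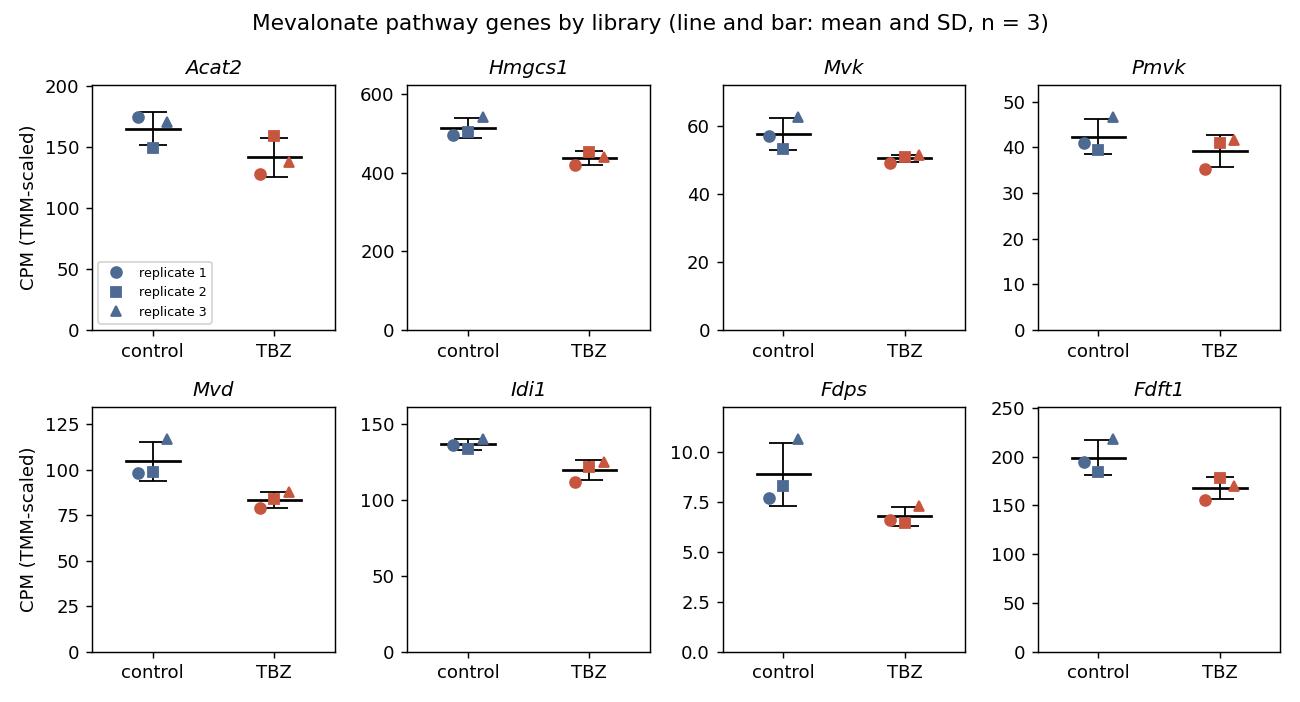
TMM-scaled CPM of the 8 genes in 3 control and 3 TBZ libraries, with the mean and SD of each group as a line and bar and each replicate as its own symbol. Control and TBZ points overlap for Acat2 and Pmvk and not for the other 6 genes.

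The 8 genes ordered the libraries in a similar way. With each gene set against its mean in controls, the median of the 8 genes on the log2 scale was -0.04, -0.09 and 0.13 in the control libraries and -0.32, -0.17 and -0.23 with TBZ. Control replicate 3 was thus the highest library and TBZ replicate 1 the lowest. These had nearly equal depth, 41005819 and 40840929 counted reads, within a range of 35825033 to 50620936 over all 6 libraries. The control libraries held 46976677, 50620936 and 41005819 counted reads and the TBZ libraries 40840929, 40973254 and 35825033. Every TBZ library was thus shallower than every control library, and the part of depth in the lower values was not tested. All 8 genes were above their control mean in control replicate 3, and all 8 were below it in each TBZ library. The 8 genes together made up 0.120%, 0.117% and 0.133% of a control library and 0.0974%, 0.109% and 0.106% of a TBZ library. Without control replicate 3 the median log2 fold change was -0.18, and without TBZ replicate 1 it was -0.19. All 8 genes remained below 0 in both fits.

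**Figure D4:**
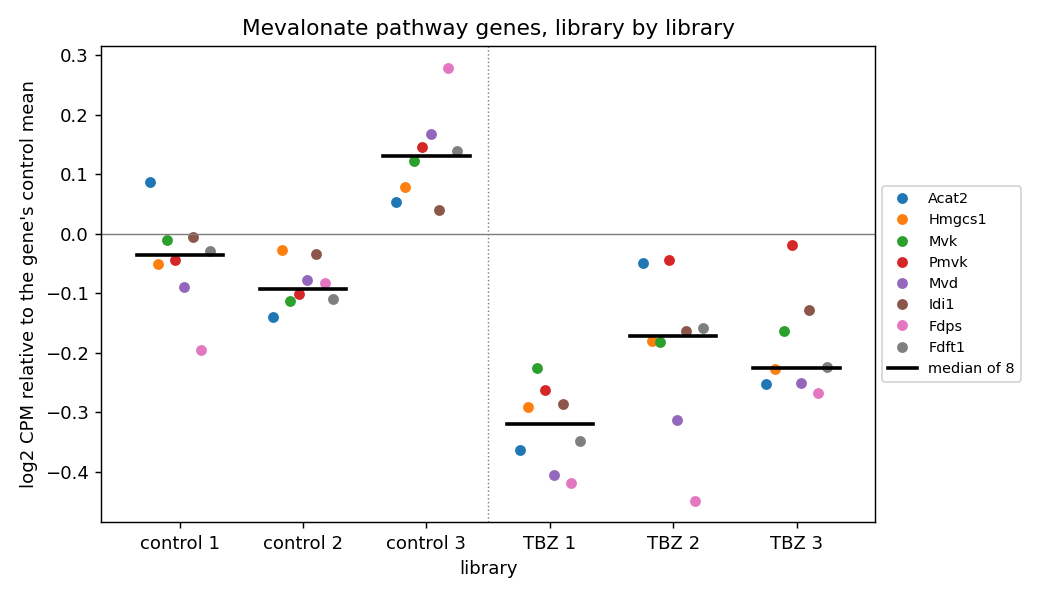
Log2 CPM of each gene relative to its control mean in the 6 libraries, with the median of the 8 genes as a black line. Control replicate 3 lies highest with a median of 0.13 and TBZ replicate 1 lowest with -0.32.

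Ratios between members were compared within libraries, which removes the scaling. Of 28 pairs of members, 5 had ratios that did not overlap between control and TBZ. Over all pairs of the 18212 tested genes with a read in every library the share was 15.4%, so the count for the members is near that of any genes and is no result about them. As an example, the ratio of Mvd to Pmvk was 1.26, 1.33 and 1.33 on the log2 scale in the control libraries and 1.16, 1.04 and 1.07 with TBZ.

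Other genes of the pathway were read from lists. After squalene, all 12 listed genes lay below 0, and their median log2 fold change of -0.22 was close to that of the 8 genes up to squalene. Of the 12, 2 fell at an edgeR adjusted p under 0.05, against 0.0329% of all tested genes. The 2 were Hsd17b7 and Msmo1 (both -0.31, edgeR adjusted p = 0.0292 and 0.0395), whose enzymes act in the removal of sterol methyl groups. In the isoprenoid side branches, 9 of 16 genes were below 0 and 7 above, the median was -0.01 and none passed. The smallest p-values there were those of Pdss1 (log2 -0.13), which makes the ubiquinone tail, and Nus1 (0.07), a dolichol synthase subunit. The summed CPM of the side branch genes lay between 795 and 814 in all 6 libraries.

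The list of sterol sensing and uptake held 15 genes, among them the sterol efflux genes Abca1 and Abcg1. Of the 15, 9 were below 0 and none passed, with a median of -0.01. Insig1, which holds the SREBP complex in the endoplasmic reticulum and is itself an SREBP target, stood at 206, 206 and 221 CPM in the control libraries and at 180.4, 183 and 188 CPM with TBZ. Its groups did not overlap, and its log2 fold change was -0.20 ± 0.04 (SE; edgeR adjusted p = 0.155). Npc2, a lysosomal cholesterol carrier, was at -0.09. Among 10 fatty acid synthesis genes 8 were below 0 with a median of -0.10 and none passed, and Me1 (-0.19) and the desaturase gene Scd1 (-0.29) had the smallest p-values. Among 10 genes of acetyl-CoA supply and use 6 were below 0 with a median of -0.08 and none passed, the smallest p-values being those of the acetyl-CoA synthetase genes Acss1 (-0.32) and Acss2 (-0.20). Differences between these lists and the 8 genes were not tested.

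**Figure D5:**
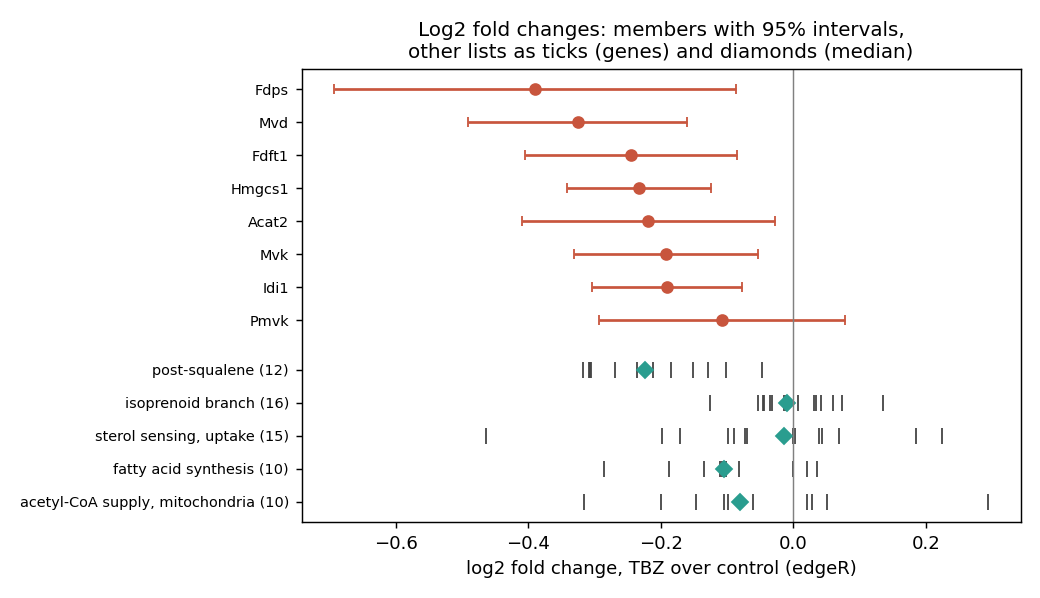
Log2 fold changes of TBZ over control from edgeR for the 8 genes with 95% intervals, and below them 5 lists of related genes with a tick per gene and a diamond at the median. The interval of Pmvk is the only one of the 8 that spans 0, and the medians of the lists run from -0.22 after squalene to -0.01 in the isoprenoid branch.

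Genes with the most similar course over the 6 libraries were sought among 10501 protein-coding genes with a mean of at least 10 CPM. Likeness was the root mean square difference from the median profile of the 8 genes, in log2 units, whose median over all ranked genes was 0.202. The nearest genes outside the 8 included Pdlim4, an actin-associated LIM protein (0.0328), Rgmb, a BMP co-receptor (0.0340), Slc25a22, a mitochondrial glutamate carrier (0.0363), and Nsdhl, a sterol dehydrogenase of the steps after squalene (0.0365). Of the members themselves, Fdft1 was nearest (0.0155) and Pmvk farthest (0.102), Fdps being under the CPM minimum. The members shape the profile they are set against, so their nearness is built in.

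The bud explant holds epithelium, mesenchyme and other cells, and in such bulk samples fewer cells of a type and less RNA per cell cannot be told apart. All 9 pancreatic epithelial markers were expressed, and 8 of 9 had a positive log2 fold change (median 0.23), the opposite sign to the mevalonate genes. None of the 9 passed at an edgeR adjusted p under 0.05, and 49.9% of all tested genes lay below 0. The summed level of 10 acinar markers was 5416 to 6427 CPM in control and 8139 to 9798 CPM in TBZ libraries. Of the 10, 7 rose at an edgeR adjusted p under 0.05, against 0.187% of all tested genes called in either direction. Of 5 neural crest and glial markers 4 were below 0. Their median profile was -0.09, -0.18 and 0.31 in the control libraries and -0.18, -0.26 and -0.27 with TBZ, so that it too was highest in control replicate 3. Their summed level was 67.0 to 90.0 CPM in control and 76.4 to 79.5 CPM in TBZ. The 7 stomach and oesophagus markers summed to 108 to 183 CPM in control, again highest in replicate 3, and to 77.8 to 121 CPM in TBZ, with Barx1 as the main part of the sum. Of the 6 tested, 5 were below 0 with a median of -1.44, the lowest of any list here, none passed, and Tff2 was at 1.37. The median profile of this list was -0.57, -0.64 and 1.21 in the control libraries and -1.46, -0.54 and -0.92 with TBZ. The 8 mesenchymal markers (median 0.02) and 5 endothelial markers (median 0.06) did not include a called gene, nor did those of endocrine cells (median 0.24), blood and macrophages (-0.07) or liver (-0.004), of which Cyp7a1 had no read in any library. The part of cell composition in the mevalonate result was not tested.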

How the data were processed

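RNA of 3 control and 3 TBZ libraries was analysed from 1 deposited table. STAR, HTSeq and the mm10 build are named per the submitters' processing notes, and versions and annotation are not given in the sources used here. Per the file headers, the table holds read counts without normalization, and FPKM values the authors computed from them and the deposited gene length. It also holds the authors' signal values (group means of scaled counts, not used in the tests), their log2 fold changes and their p-values.

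Genes were tested with the edgeR quasi-likelihood test on counts (TMM, filterByExpr, treatment alone), and p-values were adjusted by Benjamini-Hochberg over 18226 tested genes. The SE of a log2 fold change was derived from its F statistic (size divided by the root of F), and intervals are at 95%. The scripts were tested on simulated data. Each library was also left out in turn, and further alternatives were a block for replicate number, DESeq2, testing without the filter, RLE size factors, and limma on log2(FPKM + 0.5) or log2(FPKM + 0.1) where the mean reached 0.5 FPKM. Shared sequence was counted as exact 50-base stretches, either strand, in GENCODE M21 transcripts. All 8 members have the same span in the table and in GENCODE M21. Libraries held 35825033 to 50620936 counted reads.

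All 8 members were named whatever their values, and from the other lists the called genes and the 2 with the smallest p, genes that overlap, face or copy a member, and the 5 nearest profiles. Not every gene selected this way is reported here. Members and lists were chosen with earlier results of these data known. Versions were DESeq2 1.42.0, limma 3.58.1, edgeR 4.0.16 and R 4.3.3.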

Additional observations from a re-analysis of the deposited data

How the results depend on the processing

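All 8 members had a negative log2 fold change in each of the 12 alternatives. The median was -0.23 under the other tests, scalings, filters and the replicate block, and between -0.27 and -0.18 with 1 library left out. The number of members called lower was 0 with edgeR, limma and each left-out library, 2 with DESeq2 and 5 with no filter, where Acat2, Fdft1, Hmgcs1, Idi1 and Mvd passed (adjusted p from 0.000378 to 0.0439); the cause was not tested. The number with non-overlapping groups was 6, or 7 without control replicate 2 or TBZ replicate 2. Groups separate more easily with 1 library left out, and the share over all genes was not counted for those fits. Over all genes, 34 changed with edgeR, 222 with DESeq2, 445 with no filter, 14 and 13 with limma on FPKM (pseudocount 0.5 and 0.1), 5 with the replicate block, and 5 to 36 with 1 library left out (the counts were 13 when control replicate 2 was dropped, 11 for TBZ replicate 1 and 5 for TBZ replicate 3).

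Libraries with the same replicate number did not deviate together over all genes (correlations of 0.0017, -0.15 and -0.077 for numbers 1 to 3). With 3 libraries a group these values cannot exclude a pairing. With the block no member passed (median log2 fold change -0.23). Fdps rests on 260 to 445 reads a library, and Mvk, Pmvk and Fdps passed in none of the alternatives (with 1 library left out, their log2 fold changes ran from -0.25 to -0.13, from -0.16 to -0.03 and from -0.49 to -0.24, each nearest 0 without control replicate 3).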

Other observations

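Isozymes and copies of the members differed in sign, and none of those tested passed. Acat1, the mitochondrial thiolase, stood at 31.5 FPKM in control and 32.6 FPKM in TBZ (log2 0.05 ± 0.04 SE, edgeR adjusted p = 0.752). Idi2 had at most 1 read in a library. Acat3, the close copy of Acat2, had 36, 47 and 37 reads in the control libraries and 21, 10 and 18 with TBZ (log2 -1.03 ± 0.32 SE, edgeR adjusted p = 0.325). Reads of Acat2 and Acat3 cannot be fully separated, since 45.9% of the 50-base stretches of Acat2 occur in Acat3.

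Gm48342 and Gm22935, small models inside member genes, had few reads, with every TBZ library below every control, also in CPM. That order held in 7.03% of all tested genes, and its share among genes with so few reads was not counted. Gm48342, annotated antisense to Hmgcs1, had 12, 9 and 13 reads in the control libraries and 4, 4 and 3 with TBZ. Gm22935, a small nuclear RNA model inside Fdps, had 11, 13 and 21 reads in the controls and 7, 5 and 3 in TBZ. Both were under the expression filter and were not tested. Gm48574, which overlaps Idi1 on the opposite strand, had no read in any library.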
